A study of Mus musculus with 12 samples.

Results

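Disease-associated microglia genes are the transcripts that brain microglia switch on when they meet degenerating neurons, amyloid or damaged myelin. In that programme a first set of genes, Tyrobp among them, comes up without Trem2. A later set depends on the lipid receptor Trem2, which signals through its membrane partner Tyrobp. The later set includes Itgax, Clec7a, Cst7, Lpl, Axl, Spp1, Gpnmb and Igf1, and resting genes are turned down along the way. In healthy young cortex most microglia carry Trem2 and Tyrobp and little of the later set, and several of the genes are also made by other brain cells, such as Axl in astrocytes and Cst7 in cytotoxic lymphocytes. Here 10 such genes were followed: Trem2, Tyrobp, Clec7a, Axl, Itgax, Lpl, Cst7, Gpnmb, Spp1 and Igf1. They were taken from a list of names, and all 10 were found among the 30165 genes of the oligodendrocyte precursor cell (OPC) table and among the 17918 genes of the neuron table. Itgax was singled out because its level was high in the mutant OPC libraries and low in the mutant neuron libraries, so its values are given as a description without a test.

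The libraries came from mouse cortex. Control mice (ctl) are labelled WT, and whether floxed alleles or the recombinase were present in them was not given in the sources used here. Double knockout mice (dKO) carried NG2-CreERT2, a tamoxifen-dependent recombinase under the promoter of the OPC proteoglycan NG2, with floxed alleles of the L-type calcium channel pores Cav1.2 and Cav1.3, and received tamoxifen as pups. NG2 is also made by pericytes, and the neurons of these mice were not the target of the recombination. OPCs were collected with beads against CD140, NG2 and O4, and neurons by removing cells that carried ACSA-2, CD31, CD11b or O4. Each of the 4 groups had 3 libraries, each made from the pooled cells of 2 mice, and the age at collection was not given in the sources used here.

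The libraries held 14935963 to 19812274 counts in OPCs and 15052892 to 16344600 estimated counts in neurons. The targeted gene Cacna1c (Cav1.2) had 364, 411 and 439 normalized counts in ctl OPCs and 257, 336 and 316 in dKO OPCs (log2 fold change -0.44 ± 0.15, SE), and for Cacna1d (Cav1.3) the groups overlapped. The floxed exons are a small part of each gene, and counts per gene do not resolve single exons. How far the channel genes were deleted in these libraries was not tested. Both fractions held markers of other cells. Summed over 10 genes each, oligodendrocyte markers reached 45642 to 80487 CPM (counts scaled to the effective library size) in OPC libraries, where OPC markers reached 1105 to 2491 CPM. In neuron libraries endothelial markers reached 7563 to 17838 CPM and neuron markers 606 to 1397 CPM. A list of 12 general microglia markers (among them Csf1r, Aif1, Itgam, Fcer1g, C1qa, Ctss and Ptprc) stood at 255, 250 and 311 CPM in ctl OPCs and 776, 346 and 978 CPM in dKO OPCs, and at 1911, 509 and 1139 CPM in ctl neurons and 541, 1066 and 619 CPM in dKO neurons. The 10 genes were therefore read in mixtures that held microglia markers. In such bulk samples fewer cells of a type and less RNA per cell cannot be told apart. How much of the microglia marker sum came from lymphocytes, monocytes or neutrophils was not tested.

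Levels within a fraction were ordered on the length-adjusted FPKM scale (fragments per kilobase of gene, scaled to the sequencing depth). In ctl OPCs the receptor tyrosine kinase Axl was highest, at 10.6 ± 1.46 FPKM (SD, n = 3), followed by the adaptor Tyrobp at 7.30 ± 1.09, the secreted phosphoprotein Spp1 at 2.43 ± 0.733 and Trem2 at 1.497 ± 0.425, and no library of one of these overlapped the next. Lpl, Gpnmb, Cst7, Igf1 and Clec7a lay between 0.319 and 0.0982 FPKM, and each overlapped its neighbour in this order. Itgax was last, at 0.0204 ± 0.00804 FPKM, below every library of Clec7a. In dKO OPCs Tyrobp (18.5 ± 6.62 FPKM) and Axl (16.3 ± 3.79) overlapped at the top, Spp1 (5.73 ± 3.04) and Trem2 (3.56 ± 1.47) overlapped below them, and the other 6 genes had means of 0.217 to 0.521 FPKM, with no gap between neighbours. Itgax stood at 0.257 ± 0.0682 FPKM there, in a band with Gpnmb and Igf1.

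The order differed in the neuron fraction. In ctl neurons Tyrobp (75.4 ± 46.6 FPKM), Trem2 (17.1 ± 16.6) and Spp1 (13.2 ± 3.52) were on top, each overlapping the next. The cystatin Cst7 (6.71 ± 2.86 FPKM) and Axl (5.78 ± 1.76) overlapped as the next pair, then came Itgax (1.56 ± 0.987), Lpl, Clec7a and Igf1 without a gap between neighbours, and Gpnmb was last at 0.0533 ± 0.0611 FPKM. In dKO neurons the order was close to this one except that Itgax stood last, at 0.0533 ± 0.0462 FPKM, overlapping Gpnmb at 0.0800 ± 0.0693. The FPKM values of the fractions came from different gene models, so levels were not tested between OPCs and neurons.

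The windows of 250 bases before the start sites of 8 of the 10 genes were read from RefSeq (GRCm38.p6), which gave 10 windows. The myeloid transcription factor PU.1 binds a purine-rich core, and the letters GAGGAA were searched on both strands together with the E-box CACGTG and the M-box core CATGTG, which microphthalmia-family factors bind. The E-box letters also read as themselves on the other strand, and a match to one of these motifs never overlapped a match to another. The windows of Itgax, Trem2, Clec7a and Spp1 are shown because the results turn on these genes, each 5′ to 3′ on the strand of the gene, with GAGGAA or its reverse complement in capitals. They lie at chr7:128129300-128129549 (+), chr17:48346151-48346400 (+), chr6:129472780-129473029 (-) and chr5:104434861-104435110 (+).
Itgax: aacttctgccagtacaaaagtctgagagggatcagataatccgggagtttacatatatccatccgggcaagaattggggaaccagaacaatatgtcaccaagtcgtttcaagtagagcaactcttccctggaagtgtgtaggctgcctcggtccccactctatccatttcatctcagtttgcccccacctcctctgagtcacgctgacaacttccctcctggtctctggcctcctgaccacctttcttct
Trem2: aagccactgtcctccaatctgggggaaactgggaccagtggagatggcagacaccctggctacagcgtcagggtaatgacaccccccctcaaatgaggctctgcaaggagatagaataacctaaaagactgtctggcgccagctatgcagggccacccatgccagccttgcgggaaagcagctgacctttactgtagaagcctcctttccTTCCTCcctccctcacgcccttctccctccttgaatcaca
Clec7a: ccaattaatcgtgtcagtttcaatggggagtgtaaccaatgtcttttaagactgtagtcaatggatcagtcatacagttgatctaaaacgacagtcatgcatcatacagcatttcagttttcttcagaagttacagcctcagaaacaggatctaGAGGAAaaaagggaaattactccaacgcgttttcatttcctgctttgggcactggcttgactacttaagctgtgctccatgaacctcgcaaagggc
Spp1: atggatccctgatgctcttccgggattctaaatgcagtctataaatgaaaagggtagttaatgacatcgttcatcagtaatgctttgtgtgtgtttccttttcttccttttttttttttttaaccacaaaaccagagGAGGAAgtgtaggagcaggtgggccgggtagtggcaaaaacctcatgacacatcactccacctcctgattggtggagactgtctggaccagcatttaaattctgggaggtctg
The letters occurred in 6 of the 10 windows, against 23.3% of 32851 promoter windows of the same length. These 6 belong to 5 genes (Axl, Clec7a, Igf1, Spp1 and Trem2), since Clec7a has a pair of largely overlapping windows that both match, and the second window of Spp1 held no match. Itgax, Cst7 and Gpnmb held no match in this stretch, and none of the 8 genes held CACGTG (6.02% of all windows) or CATGTG (12.3%). These are matches of letters and not evidence of binding.

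In OPCs the receptors and their adaptor were higher in dKO libraries, but none of Tyrobp, Trem2 and Axl passed the edgeR test over all genes. Tyrobp, whose cytoplasmic motif recruits the kinase Syk, had 75.2, 79.8 and 100.4 normalized counts in ctl and 235, 132 and 289 in dKO libraries. Trem2 had 136, 89.3 and 163 normalized counts in ctl and 342, 169 and 426 in dKO libraries. For both genes every dKO library lay above every ctl library, with dKO replicate 2 closest to the controls. The log2 fold change was 1.33 ± 0.29 (SE) for Tyrobp (adjusted p = 0.255, edgeR) and 1.24 ± 0.35 for Trem2 (adjusted p = 0.305, edgeR). Both genes passed with DESeq2 (adjusted p = 0.00637 for Tyrobp and 0.0371 for Trem2). With edgeR they also passed when dKO replicate 2 was left out (adjusted p = 0.0185 for Tyrobp and 0.0335 for Trem2), and Tyrobp passed without the filter on low counts (adjusted p = 0.0405). Over all alternatives the adjusted p ranged from 0.00637 to 0.779 for Tyrobp and from 0.0335 to 0.779 for Trem2, the highest with ctl replicate 2 left out.

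Clec7a, the beta-glucan receptor Dectin-1, was a low-count gene in OPC libraries, with 6.84, 3.57 and 3.14 normalized counts in ctl and 28.9, 10.9 and 33.5 in dKO libraries. Its groups did not overlap, and its summed counts were 5.03 times higher in dKO (95% counting interval 2.81 to 9.65, exact). The log2 fold change was 2.33 ± 0.59, and 2.02 without dKO replicate 3. It is given without a test, because Clec7a reached the minimum mean count of 10 only through its dKO libraries (a mean of 24.4 against 4.52 normalized counts in ctl). Axl, which with its relative Mertk takes part in the clearance of dying cells, had 820, 898 and 1083 normalized counts in ctl and 1136, 1794 and 1421 in dKO libraries. The lowest dKO library was only slightly above the highest ctl library, and the log2 fold change was 0.62 ± 0.18 (adjusted p = 0.310, edgeR).

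Itgax encodes the integrin alpha chain CD11c, which pairs with the beta-2 chain Itgb2 and is carried by dendritic cells, some lymphocytes and activated microglia. In OPCs its raw counts were 2, 2 and 1 in ctl and 17, 31 and 19 in dKO libraries, which gave 1.71, 2.38 and 1.05 normalized counts against 16.9, 28.1 and 20.6. Unlike the counts of Tyrobp and Trem2, the highest value came from dKO replicate 2. The summed counts were 13.1 times higher in dKO (95% counting interval 5.34 to 41.7, exact), and the log2 fold change was 3.58 ± 0.54. These are the values on which the gene was picked, and without dKO replicate 2 it no longer reached the minimum mean count of 10. The total behind them was 5 counts in ctl and 67 in dKO, and the interval covers counting error only.

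Among the remaining genes, Spp1 (osteopontin) had 58.1, 57.2 and 95.1 normalized counts in ctl and 129, 103 and 270 in dKO OPCs, without overlap (log2 fold change 1.23 ± 0.39, adjusted p = 0.321, edgeR). The value rested in part on 1 library, since it was 0.70 without dKO replicate 3. The lipoprotein lipase Lpl had 49.6, 44.1 and 81.5 normalized counts in ctl and 105, 58.8 and 113 in dKO libraries, and the groups overlapped (log2 fold change 0.63 ± 0.34). The transmembrane glycoprotein Gpnmb, which is found on late endosomes and lysosomes, had 27.4, 28.6 and 28.2 normalized counts in ctl and 31.9, 55.2 and 34.6 in dKO libraries. Its groups did not overlap, but most of the difference came from dKO replicate 2, without which the log2 fold change of 0.51 ± 0.34 was 0.21. The growth factor Igf1 overlapped (log2 fold change 0.32 ± 0.33, with 0.14 when dKO replicate 2 and 0.53 when ctl replicate 1 was left out). Cst7, an inhibitor of cysteine cathepsins, was too low to be tested, with raw counts of 6, 3 and 2 in ctl and 5, 14 and 2 in dKO libraries.

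Besides Itgax and Clec7a, 7 genes were tested in OPCs, each above the minimum count in both groups. All 7 had a log2 fold change above 0, as did 50.8% of all 17364 genes tested, with 49.2% below 0. The groups did not overlap in 5 of the 7, all higher in dKO, against a background of 8.59% of all genes (7.82% lay apart with dKO lower). For 4 of the 7 the unadjusted p was under 0.05, all with dKO higher, against 6.26% of all genes (5.27% with dKO lower and 11.5% in either direction). With edgeR 0 of the 7 passed an adjusted p of 0.05 (0.00576% of all genes did), and with DESeq2 2 of the 7 passed (1.69% of all genes). The 7 genes were measured in the same libraries and are not independent of each other, and their median log2 fold change was 0.63 against 0.01 over all genes. The general microglia markers moved the same way, with 12 of 12 higher in dKO OPCs and a median log2 fold change of 1.30, and 9 of 9 astrocyte markers were also higher (median 1.08). Markers of most other cells lay above ctl too, with 10 of 10 endothelial (median 0.28), 8 of 8 pericyte (0.39), 9 of 10 neuron (0.41), 8 of 9 border macrophage (0.61), 5 of 5 dendritic cell (0.64) and 8 of 10 OPC markers (0.52). In the dendritic cell list Cd209a reached the minimum count only through dKO, with a mean of 16.4 against 4.93 normalized counts in ctl. Of 10 oligodendrocyte markers 2 were above ctl (median -0.42). The part of these cells in the result was not tested.

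**Figure D1:**
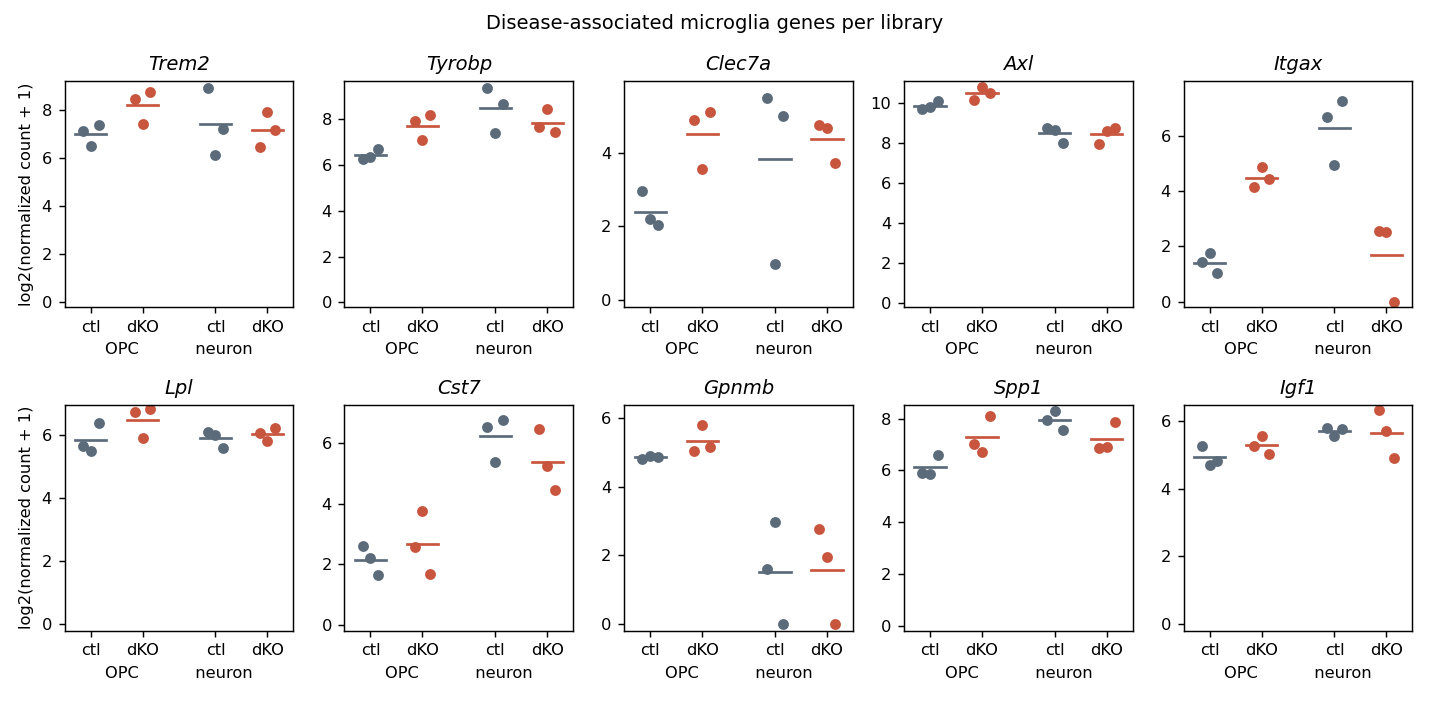
Normalized counts of the 10 genes in each of the 12 libraries, on a log2 scale after adding 1, for ctl (grey) and dKO (red) in OPCs and neurons. Points are libraries and short lines the means of 3. In OPCs the Itgax points of dKO (16.9 to 28.1 counts) lie far above ctl (1.05 to 2.38), and in neurons they lie below (0 to 4.85 against 30.3 to 153), while the other genes overlap between groups in neurons.

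In neurons Itgax had 101, 31 and 143 estimated counts in ctl libraries and 5, 5 and 0 in dKO libraries, all assigned to 1 transcript, NM_021334. This gave 103, 30.3 and 153 normalized counts against 4.85, 4.72 and 0. For the dKO library at 0, a count of 0 allows up to 0.198 CPM, for counting error only. The lowest ctl library, replicate 2, was still far above every dKO library. The summed counts were 28.6 times higher in ctl (95% counting interval 15.3 to 60.3, exact) and the log2 fold change was -4.82 ± 0.93, again the values on which the gene was picked.

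No other gene of the group separated ctl from dKO neurons. Cst7, nearly absent from OPC libraries, had 92.5, 41.0 and 107 normalized counts in ctl and 88.3, 36.8 and 20.6 in dKO neurons (log2 fold change -0.71 ± 0.60, adjusted p = 0.742, edgeR). Without dKO replicate 1 its log2 fold change was -1.47 (adjusted p = 0.587, edgeR, within a range of 0.587 to 0.932 over all alternatives). Tyrobp had 645, 164 and 403 normalized counts in ctl and 199, 341 and 168 in dKO neurons (log2 fold change -0.77 ± 0.46, adjusted p = 0.657, edgeR). Trem2 had 479, 68.3 and 147 normalized counts in ctl and 87.3, 236 and 139 in dKO neurons, and its log2 fold change of -0.58 ± 0.65 turned to 0.53 without ctl replicate 1. For these genes the spread within ctl was as wide as any difference between the genotypes. Spp1 had 245, 312 and 186 normalized counts in ctl and 115, 117 and 232 in dKO neurons (log2 fold change -0.68 ± 0.33, adjusted p = 0.579, edgeR).

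Clec7a, Axl, Lpl and Igf1 had log2 fold changes from -0.27 to 0.13 in neurons. One ctl neuron library, replicate 2, stood out for Clec7a, with 0.976 normalized counts against 44.7 and 31.1 in the other ctl libraries, and the same library was lowest of the 6 for Trem2, Tyrobp and the microglia marker sum. Gpnmb was too low to be tested, with 2, 7 and 0 counts in ctl and 6, 3 and 0 in dKO neurons. Of the 8 genes tested without Itgax, 0 passed with edgeR (0% of 14352 genes), 0 passed with DESeq2 (0.613% of all genes) and 0 had an unadjusted p under 0.05 (9% of all genes, 4.96% with dKO higher and 4.04% with dKO lower). In 0 of the 8 did the groups lie apart, against 7.34% of all genes with dKO higher and 8% with dKO lower. A log2 fold change above 0 was found for 2 of the 8, against 51.1% of all genes, and below 0 for 6, against 48.9%. The median log2 fold change of the 8 was -0.43 against 0.01 over all genes. General microglia markers had a median of -0.78 in the same libraries, with 0 of 12 higher in dKO, and endothelial (0 of 10 higher, median -0.39) and oligodendrocyte markers (0 of 10 higher, median -1.02) moved the same way, as did border macrophage (1 of 8 higher, median -0.87), monocyte and neutrophil (0 of 6, -0.66), lymphocyte (3 of 9, -0.66), OPC (3 of 10, -0.57), astrocyte (3 of 9, -0.39) and dendritic cell markers (2 of 6, -0.28). The dendritic cell marker Cd209a (means of 28.3 normalized counts in ctl and 7.44 in dKO) reached the minimum count only through ctl. The same held for the border macrophage marker Lyve1 (17.3 and 7.26). Pericyte markers were higher in 6 of 8 (median 0.04). Neuron markers were higher in 9 of 10 (median 0.53). Their part in the result was not tested.

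**Figure D2:**
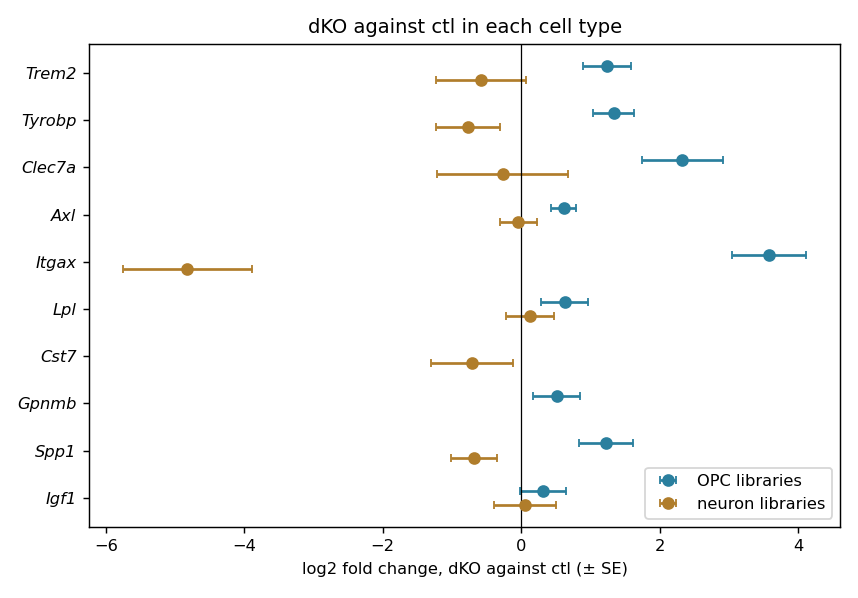
Log2 fold change of dKO against ctl with its standard error, from edgeR, in OPC libraries (blue) and neuron libraries (ochre). Itgax lies at 3.58 in OPCs and -4.82 in neurons, the values it was picked on. The other genes shown lie between 0.32 and 2.33 in OPCs and between -0.77 and 0.13 in neurons. Clec7a in OPCs reached the minimum count only through dKO, and Cst7 in OPCs and Gpnmb in neurons were too low to be shown.

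The libraries were next ordered by each gene and by the sum of each marker list, to describe which cells' markers each gene ran with. Within a fraction the 3 ctl and 3 dKO libraries give 6 pairs of libraries of the same group, whose order does not depend on the genotype. In OPCs Trem2, Spp1 and Lpl followed the microglia marker sum in 6 of 6 such pairs and Tyrobp in 5 of 6. Across all 15 pairs of OPC libraries Trem2 and Spp1 kept exactly that order. Itgax and Cst7 followed it in only 1 of 6 pairs, and Gpnmb and Igf1 in 2 of 6. All 4 were highest in dKO replicate 2, the dKO library with the fewest microglia markers. Among the ctl libraries the Itgax counts of 2, 2 and 1 were too few to order. The dKO replicate 2 library also had the most astrocyte marker RNA, at 6926 CPM against 2541 and 3853 CPM in the other dKO libraries and 1601 to 2602 CPM in ctl. It had the most OPC marker RNA as well, at 2491 CPM against 1644 and 1225 CPM in dKO and 1105 to 1909 CPM in ctl.

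Axl, which was highest in the same library, followed the astrocyte sum in 6 of 6 pairs and in 14 of all 15, and the microglia sum in 3 of 6. The OPC libraries could not separate every cell type in this way, since 4 of the 9 lists compared (general microglia, homeostatic microglia, border macrophage and lymphocyte markers) ranked the 6 libraries identically. Endothelial markers gave the same counts within groups as the microglia markers for Trem2, Spp1 and Lpl (6 of 6) and Tyrobp (5 of 6), and 11 to 13 of all 15 pairs. The lymphocyte sum was 0.476 to 2.22 CPM in OPC libraries and none of its 9 genes reached the level for testing. Border macrophage markers stood at 58.6 to 67.5 CPM in ctl and 69.9 to 137 CPM in dKO OPCs, and dendritic cell markers at 11.2 to 15.6 CPM and 12.8 to 35.2 CPM.

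In neurons the genes split differently. Trem2 followed the microglia sum in 6 of 6 pairs and Tyrobp in 5 of 6, and both kept its order in 14 of all 15 pairs. Itgax and Cst7 followed the microglia sum in 3 of 6 pairs each, but the sum of lymphocyte markers in 6 of 6. For Itgax 1 of these pairs, dKO replicates 1 and 2 with 5 counts each, is a tie in counts that only library size ordered. Lymphocyte markers, which include the T and NK cell genes Cd3e, Cd8a, Nkg7, Gzma and Klrb1c, stood at 325, 117 and 397 CPM in ctl neurons and 247, 75.3 and 68.9 CPM in dKO neurons. Markers of monocytes and neutrophils, which were not among the 9 lists compared, ranked the 6 neuron libraries identically (59.7, 31.2 and 72.4 CPM in ctl and 43.1, 26.7 and 20.9 CPM in dKO), so the match is not particular to lymphocytes. Cst7 ran in exactly the order of both sums in all 15 pairs, dKO replicate 1 included, which had 88.3 normalized counts of Cst7 beside the highest lymphocyte sum of the dKO group.

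Itgax parted from this order in that same library, which had 5 Itgax counts, while ctl replicate 2, with fewer lymphocyte markers, had 31. Dendritic cell markers stood at 83.3 to 125 CPM in ctl and 49.0 to 123 CPM in dKO neurons, and Itgax followed them in 2 of 6 pairs. In all, 180 combinations of gene, list and fraction were compared and 21 of them had all 6 pairs in the same order, 16 in OPCs and 5 in neurons, so a single match carries little weight. The part of lymphocytes, monocytes, neutrophils, astrocytes and microglia in the levels of these genes was not tested.

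**Figure D3:**
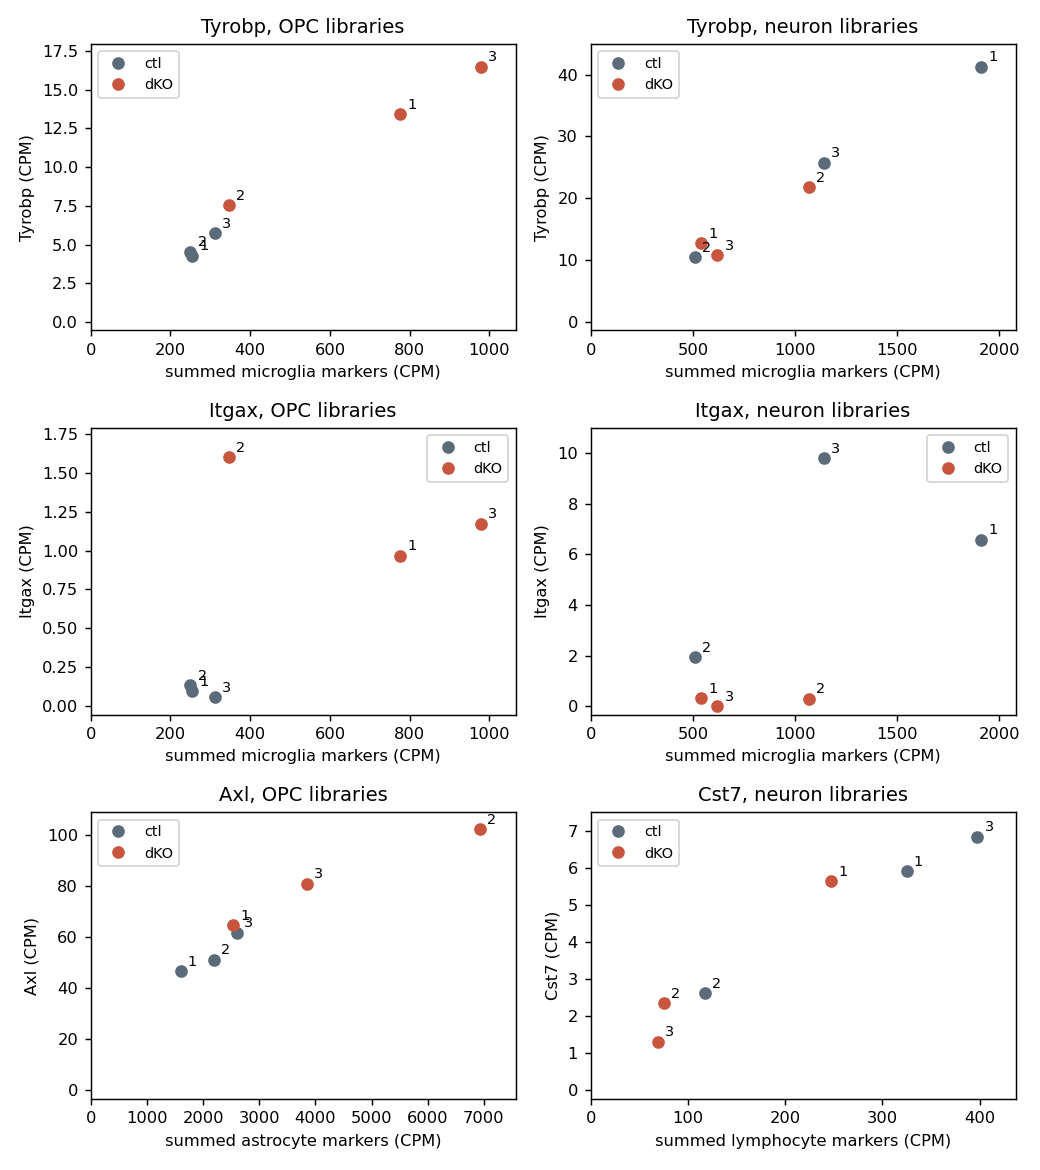
Level of a gene against the summed level of a marker list, both in CPM, with 1 point for each library numbered by replicate (grey ctl, red dKO). Tyrobp rises with the microglia sum in both fractions, Axl with the astrocyte sum in OPCs and Cst7 with the lymphocyte sum in neurons. The Itgax points of dKO OPCs lie highest in replicate 2, where the microglia sum was 346 CPM, and those of dKO neurons stay near 0 at microglia sums of 541 to 1066 CPM.

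The level of each gene was then divided by the microglia marker sum of its library, on a log2 scale with 0.1 CPM added to the gene. Tyrobp per microglia marker was nearly level in all 12 libraries, from -5.88 to -5.40, and its dKO libraries differed from ctl by 0.04 in OPCs and -0.09 in neurons, with overlapping groups. Trem2 per microglia marker differed by -0.04 in OPCs and 0.30 in neurons, and Spp1 by -0.09 and -0.18, all with overlapping groups. Leaving out 1 library moved Trem2 between -0.22 and 0.06 in OPCs and between 0.13 and 0.60 in neurons. It moved Spp1 between -0.25 and 0.17 in OPCs and between -0.61 and 0.52 in neurons. The differences of Trem2, Spp1 and Tyrobp in OPCs became 0.43, 0.38 and 0.51 when a list of 14 homeostatic microglia genes was used in the denominator, which turned the sign for Trem2 and Spp1. Sparc, which other glia and vessels also make, held most of that second sum. Clec7a was higher per microglia marker in dKO OPCs, with -9.02, -9.69 and -10.1 in ctl and -8.79, -8.91 and -8.92 in dKO libraries, a difference of 0.73 in which the nearest libraries of the groups almost met. With no constant added, an alternative chosen after seeing the data, this difference was 1.12, since 0.1 CPM is not small beside the ctl levels. Against the homeostatic list and with the constant it was 1.20. Leaving out 1 library moved the 0.73 of Clec7a between 0.48 (without ctl replicate 3) and 1.03 (without ctl replicate 1).

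Itgax per microglia marker stood at -10.3, -10.1 and -10.9 in ctl and -9.51, -7.67 and -9.59 in dKO OPCs, a difference of 1.52 that was 0.89 without dKO replicate 2. The added 0.1 CPM was as large as the ctl levels of Itgax (0.0597 to 0.136 CPM) and so lowers this value, which was 2.48 with no constant added, an alternative chosen after seeing the data. In neurons it stood at -8.16, -7.97 and -6.85 in ctl and -10.4, -11.4 and -12.6 in dKO libraries, a difference of -3.79. The last of these libraries had 0 counts, so its value is set by the added constant. With no constant and that library placed at the limit of 3 counts, the difference was -3.69, which is then the smallest that the count of 0 allows. The groups did not overlap in either fraction, in the direction the gene was picked for. Lpl was lower per microglia marker in dKO OPCs, by -0.61 with no overlap, and by -0.14 against the homeostatic list. Axl, Gpnmb, Cst7 and Igf1 had differences of -0.62 to -0.91 in OPCs with overlapping groups. These were -0.15 to -0.44 against the homeostatic list, and leaving out dKO replicate 2 or 3 moved them between -1.23 and -0.31 for Axl, -1.45 and -0.38 for Gpnmb, -1.70 and -0.015 for Cst7 and -1.49 and -0.48 for Igf1. In neurons no gene but Itgax had groups that lay apart. Ratios of this kind were not tested.

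**Figure D4:**
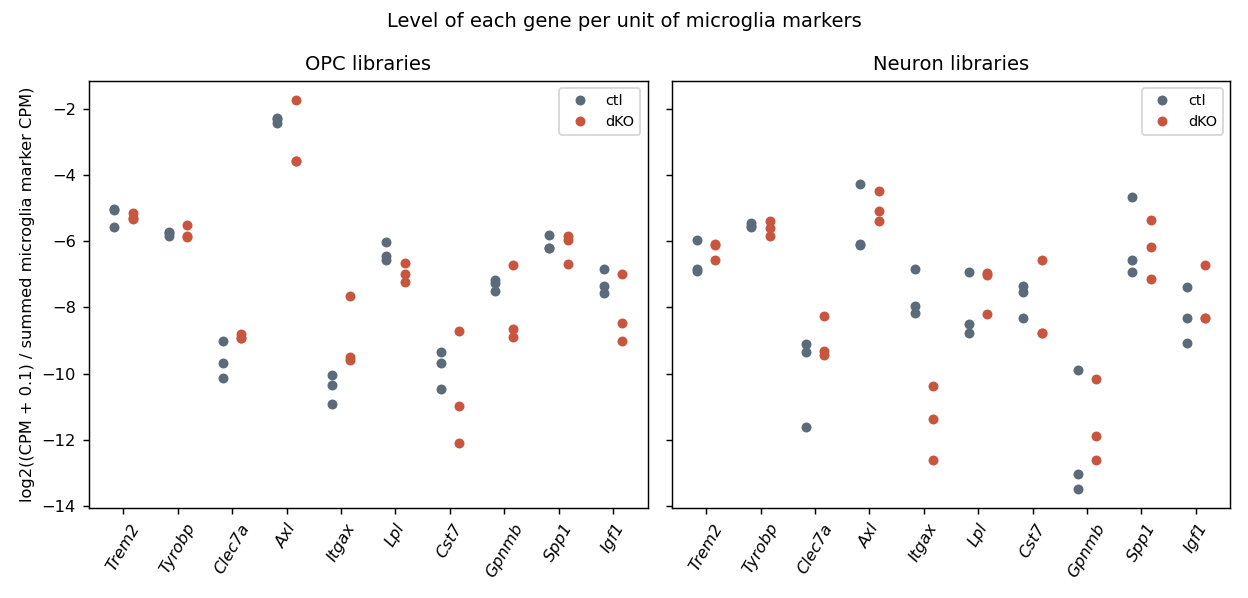
Log2 of each gene's CPM, with 0.1 added, over the summed CPM of 12 general microglia markers, for each library (grey ctl, red dKO). Tyrobp stays between -5.88 and -5.40 in all 12 libraries. Itgax shifts upward in dKO OPCs (1.52) and downward in dKO neurons (-3.79). With homeostatic microglia genes in the denominator the OPC differences of Trem2 and Spp1, here -0.04 and -0.09, turned positive.

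The beta-2 integrins that share the Itgb2 chain with Itgax were examined after its values had been seen. Itgb2 had 70.1, 45.3 and 92.0 normalized counts in ctl and 171, 43.4 and 241 in dKO OPCs, and 867, 436 and 1195 in ctl and 506, 445 and 295 in dKO neurons, with overlap in both. Itgam (CD11b), the alpha chain used to remove microglia from the neuron fraction, overlapped between the groups in OPCs (log2 fold change 1.08 ± 0.46) and in neurons (-0.83 ± 0.56), and so did Itgal (0.98 ± 0.77 and -0.56 ± 0.50). Itgad overlapped in OPCs and was too low to be tested in neurons. Neither the beta chain nor these alpha chains separated ctl from dKO in either fraction, and how far they differ from Itgax was not tested.

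The genes that follow Trem2 and Tyrobp in signalling, with ligands and partners of the other members, formed a list of 27. In OPCs 25 of them reached the level for testing. In 20 the dKO mean was above ctl (50.8% of all genes were), with a median log2 fold change of 0.46. Unadjusted p-values under 0.05 came from 9 genes with dKO higher (6.26% of all genes) and 2 with dKO lower (5.27%), and 0 passed with edgeR. DESeq2 called 4 (1.69% of all genes). The Axl relative Mertk went from 536 ± 78.6 to 1056 ± 303 normalized counts (SD, n = 3; log2 fold change 0.95 ± 0.20, edgeR adjusted p = 0.246). The Tyrobp-associated kinase Syk had a log2 fold change of 1.78 ± 0.44, its substrate Vav1 1.85 ± 0.50 and the lipid phosphatase Inpp5d, which restrains this pathway, 1.46 ± 0.42. For Mertk, Syk and Vav1 every dKO library was above every ctl library, and Inpp5d overlapped. In the whole list the groups lay apart in 4 of 25 with dKO higher and in 2 with dKO lower, against 8.59% and 7.82% of all genes.

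The neuron libraries gave 25 tested genes of this list, with 6 above ctl (51.1% of all genes were), a median log2 fold change of -0.32 and 0 passing with edgeR. An unadjusted p under 0.05 was found for 4, all lower, against 4.04% of all genes. They were the lipoprotein lipase inhibitor Angptl4 (546 ± 134 to 282 ± 57.8 normalized counts, log2 fold change -0.95 ± 0.23, edgeR adjusted p = 0.521), Itgb2 (-0.997 ± 0.354), the lipase maturation factor Lmf1 (-0.55 ± 0.22) and the cathepsin Ctsh (-0.43 ± 0.18). DESeq2 called Angptl4 alone (adjusted p = 0.0486, with 0.613% of all genes called). Lpl itself overlapped between the groups, with 67.1, 63.4 and 47.1 normalized counts in ctl and 65.9, 54.8 and 73.3 in dKO neurons.

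A list of 36 other genes of the disease-associated programme included 34 with enough counts in OPCs, of which 25 lay above ctl in dKO, with a median log2 fold change of 0.23. An unadjusted p under 0.05 was found for 8, all higher (6.26% of all genes), 0 passed with edgeR and 2 with DESeq2 (1.69% of all genes), the chemokine Ccl3 (log2 fold change 1.86 ± 0.48) and lysozyme Lyz2 (1.07 ± 0.28). The oxidase subunit Cybb (1.09 ± 0.39) and the cholesterol hydroxylase Ch25h (0.72 ± 0.26) came next. In the whole list the groups lay apart in 10 of 34 with dKO higher, against 8.59% of all genes. They lay apart in 0 with dKO lower, against 7.82%. The 4 genes named, picked by the smallest unadjusted p, are among the 10. Homeostatic microglia genes, which the programme turns down, were higher too, in 13 of 14 genes (50.8% of all genes were above 0), with 13 at an unadjusted p under 0.05, 0 called by edgeR and 8 called by DESeq2. Among them Selplg had a log2 fold change of 1.86 ± 0.45, Siglech 1.55 ± 0.39, Olfml3 1.22 ± 0.34 and Sparc, which other glia and vessels also make, 0.58 ± 0.16.

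In neurons 33 of the 36 genes were tested, with 11 higher against 51.1% of all genes (median log2 fold change -0.15). An unadjusted p under 0.05 was found for 1 with dKO higher (Timp2, 0.48 ± 0.20) and 3 with dKO lower. Over all genes these shares were 4.96% and 4.04%. The 3 lower genes were the microglia growth factor Csf1 (777 ± 304 to 392 ± 97.8 normalized counts, -0.99 ± 0.29), the actin-capping protein Capg (-0.52 ± 0.19) and Ch25h (-1.55 ± 0.56). With edgeR and with DESeq2 0 passed. The neuron groups of Ch25h overlapped. Homeostatic genes were lower in 13 of 14 (48.9% of all genes were), with 0 at an unadjusted p under 0.05 and 0 called by either tool.

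Over all 12 libraries, the genes whose deviations from the group means were most like those of Itgax were Zscan25 (r = 0.953), Mcm9 (0.937), Csmd3 (0.920), Atp8b4 (0.913) and Fn3k (0.905), out of 13401 genes ranked. The disease-associated genes followed here were set aside before this choice, so none of them could appear in it. On the log2(CPM + 1) scale used for this ranking, the 3 ctl neuron libraries held 90.9% of the squared deviations of Itgax from its group means, so the ranking rests mainly on them and is given as a description.

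The 10 genes lay on 7 chromosomes, with positions given as the OPC table has them. Itgax spans chr7:127728719-127749829 (+), on the same chromosome as Tyrobp at chr7:30113185-30117010 (+) and Axl at chr7:25456698-25488130 (-). Of the 10 genes, only Spp1 overlapped another annotated gene, Gm42793 on the same strand, which held 5 counts in all 6 OPC libraries together. In the neuron table Trem2 was split over 2 transcripts, of which NM_031254 took 89.3% of the ctl and 90.8% of the dKO counts, and Spp1 over 3, of which NM_009263 took 91.5% and 92.3%. For Axl, with 6 transcripts, and Igf1, with 8, the estimated shares varied widely between libraries, and the sums per gene were used.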

How the data were processed

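RNA was sequenced from OPC and neuron fractions of mouse cortex, with poly(A) selection and, per the labels, a TruSeq v2 kit, which keeps no strand. Per the study's methods, reads were aligned to GRCm38 with HISAT2 v2.0.5, counted per gene with featureCounts v1.5.0-p3 and compared with DESeq2 v1.20.0 after removing genes under a normalized count of 10. The labels list mm39, and positions in the OPC table differ from GRCm38 positions of the same genes in RefSeq, so they are given as deposited and were not converted. The authors deposited raw counts per Ensembl gene for OPCs. The neuron table deposited by the authors holds estimated counts for 66298 RefSeq transcripts, whose tool is not given in the sources used here. FPKM values deposited by the authors were used only to order levels, summed over transcripts in neurons. Columns with the authors' own fold changes and p-values were not used.

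Here the estimated counts were summed to 17918 genes and rounded, and genes without a symbol held 0.0441% of them. Each fraction was fitted on its own, dKO against ctl, with genotype as the only term, by edgeR 4.0.16 in R 4.3.3 (TMM, quasi-likelihood F test) over genes whose normalized count averaged 10 or more. Adjusted p is Benjamini-Hochberg over all genes tested, with a threshold of 0.05. Alternatives were DESeq2 1.42.0, other scalings, no filter, a replicate block and leaving out each library. In 3 against 3 libraries an exact permutation test cannot go below p = 0.1, so none is given for single values. Counting intervals are exact binomial ones at 95% and cover counting error only, and a count of 0 was bounded at 3 counts. Simulated data with 200 genes changed by 2 on the log2 scale were fitted with both tools. EdgeR called 180 of 200 in OPCs with 6 false calls among 17124 genes, and 179 of 199 in neurons with 10 among 14232. DESeq2 called 178 of 200 with 13 false calls in OPCs, and 182 of 199 with 27 in neurons. Counts were drawn gene by gene from a dispersion trend without shared shifts in cell mixture, so these shares need not hold in the real libraries. Replicates are pools of different mice by the study's account, and no libraries matched within sampling noise.

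Genes are named in the text by this rule: the 10 genes by role, up to 4 genes of each further list with the smallest unadjusted p, and the 5 most like Itgax. Marker lists entered the sums whole, and not every gene in them is reported here by name. The gene group, the lists and the rule were chosen with earlier results of these data known.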

Additional observations from a re-analysis of the deposited data

Results flagged for a closer look

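Itgax had a log2 fold change of 3.58 in dKO against ctl OPCs and of -4.82 in dKO against ctl neurons. It is listed because every dKO OPC library lay above every ctl OPC library and every dKO neuron library lay below every ctl neuron library. The difference between the fractions was not tested, since the tables were made in different ways, and the gene was chosen for this pattern.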

How the results depend on the processing

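The count of OPC genes called, 1 with edgeR, was 293 with DESeq2, 87 without the filter on low counts and 25 with a replicate block, and ranged from 1 to 199 when each library was left out, with the highest count without dKO replicate 2. The count of neuron genes called, 0, was 88 with DESeq2 and 0 in each fit without a library. The replicate block assumes that libraries with the same number belong together. Deviations of same-numbered libraries correlated at -0.15, 0.19 and 0.17 in OPCs and 0.17, -0.04 and -0.05 in neurons, and not every library correlated best with its own number, so the pairing is not supported and the block is given only here. Under it 0 neuron genes were called, and Igf1 in neurons changed sign to -0.043 and Clec7a to 0.18. In OPCs each of the 7 tested genes besides Itgax and Clec7a kept a log2 fold change above 0 under all 11 alternatives. In neurons the number of genes higher, 2, ranged from 1 without ctl replicate 3 to 5 without ctl replicate 1. Over fits without 1 library the neuron log2 fold changes ranged from -0.24 to 0.16 for Axl, from -0.84 to 0.41 for Clec7a, from -1.03 to 0.53 for Trem2, from -0.35 to 0.35 for Igf1, from -1.47 to -0.35 for Cst7, from -1.14 to -0.26 for Tyrobp, from -1.08 to -0.48 for Spp1 and from -0.0094 to 0.24 for Lpl. Against the homeostatic list the OPC levels per microglia gave 0.38 for Spp1, 1.20 for Clec7a, -0.14 for Lpl, 0.43 for Trem2 and 0.51 for Tyrobp, and with no constant added Itgax gave 2.48. The cause of these changes was not tested. With counts of 1 or 2 per ctl OPC library for Itgax, depth limits how closely its fold change can be known.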
